A study of Mus musculus with 18 samples.

Results

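The genes described here make cholesterol, sense it, move it inside the cell and export it, and were followed in mouse bone marrow macrophages exposed to nanoparticles and to lipopolysaccharide (LPS, a component of the bacterial outer membrane). The list held 37 gene symbols taken from knowledge of the pathway, and was chosen with earlier results of these data known. Counts of its genes are therefore no independent test. Of the 37 symbols, 33 had a probe set with a gene name, out of 12393 genes measured on the arrays. Where a gene had several probe sets, the one with the highest mean over the 18 arrays was used. Acat2, Insig1, Soat1 and Nr1h2 were not analysed here. Of the 33 genes, 17 encode synthesis enzymes, 4 the sterol sensing machinery, 2 a sterol carrier and an oxysterol enzyme, 6 liver X receptor and export functions, and 4 fatty acid or phospholipid enzymes. Cholesterol uptake was represented by Mylip alone.

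There were 6 groups of 3 cultures with 1 array each. SPIO-LPS cells received 33 nm iron oxide particles (SPIO) for 24 h and then, after a wash, LPS at 10 ng/ml for 4 h. Silica-LPS cells received 50 nm amorphous silica particles in place of SPIO, and LPS cells had medium without particles before the same LPS exposure. SPIO and Silica cells had the particles and then fresh medium without LPS, and CON cells had medium only. The sample records used here give no exposure times for CON cells. Whether their medium was changed in the same way is therefore not known. The labels give 25 mg/ml for both particles, a unit that could not be checked here. All cultures were grown from the femoral marrow of C57BL/6 mice 4 to 6 weeks old, in medium conditioned by L929 cells (a fibroblast line used as a source of macrophage growth factor), and were treated in medium with fetal bovine serum. The labels call the 3 cultures of a group biological replicates but do not state that each came from a different animal. The tests therefore use the spread among these cultures, which may be partly technical.

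Cholesterol is built from acetyl-CoA, first through mevalonate to farnesyl diphosphate and then through squalene and lanosterol to the finished sterol. The genes of this chain are switched on by SREBP2, a membrane-bound transcription factor that SCAP escorts to the Golgi for release when sterol in the endoplasmic reticulum is low, and that INSIG proteins hold back when it is high. Liver X receptors act in the other direction: they sense oxysterols and induce exporters such as ABCA1 and ABCG1, which macrophages use to shed cholesterol taken up with lipoproteins and dying cells.

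The promoters of 5 synthesis genes are shown because these genes rose with SPIO and then parted in their response to LPS. Hmgcs1, Idi1 and Cyp51 also rose with LPS, whereas Mvd and Dhcr7 fell. Each sequence is the 250 bases before the start of the gene in RefSeq on mouse build GRCm38.p6, read 5′ to 3′ on the strand of the gene, with 3 motifs in capitals on either strand: the CCAAT box (CCAAT or ATTGG), the GC box (GGGCGG or CCGCCC) and a sterol element searched as TCACNCCAC.
Hmgcs1 promoter (chr13:119690101-119690350, + strand): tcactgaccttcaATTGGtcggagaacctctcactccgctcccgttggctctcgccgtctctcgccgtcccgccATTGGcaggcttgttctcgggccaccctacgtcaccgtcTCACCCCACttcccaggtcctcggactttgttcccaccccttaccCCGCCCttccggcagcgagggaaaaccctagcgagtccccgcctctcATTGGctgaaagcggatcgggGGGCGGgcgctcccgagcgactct
Idi1 promoter (chr13:8885356-8885605, + strand): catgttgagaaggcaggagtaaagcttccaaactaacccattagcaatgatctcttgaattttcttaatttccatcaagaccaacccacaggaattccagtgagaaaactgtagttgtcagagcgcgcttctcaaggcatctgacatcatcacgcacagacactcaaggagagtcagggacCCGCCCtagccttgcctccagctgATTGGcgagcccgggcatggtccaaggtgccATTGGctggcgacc
Cyp51 promoter (chr5:4104698-4104947, - strand): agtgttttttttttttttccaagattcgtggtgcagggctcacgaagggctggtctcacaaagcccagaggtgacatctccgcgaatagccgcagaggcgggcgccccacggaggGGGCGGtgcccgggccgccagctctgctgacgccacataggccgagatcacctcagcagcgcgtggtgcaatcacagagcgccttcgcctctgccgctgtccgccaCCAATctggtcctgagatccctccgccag
Mvd promoter (chr8:122443423-122443672, - strand): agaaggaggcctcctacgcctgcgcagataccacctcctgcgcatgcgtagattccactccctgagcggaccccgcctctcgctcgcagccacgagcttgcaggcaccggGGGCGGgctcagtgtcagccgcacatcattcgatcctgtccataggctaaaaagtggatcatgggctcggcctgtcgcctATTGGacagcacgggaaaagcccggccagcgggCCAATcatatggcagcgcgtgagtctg
Dhcr7 promoter (chr7:143822917-143823166, + strand): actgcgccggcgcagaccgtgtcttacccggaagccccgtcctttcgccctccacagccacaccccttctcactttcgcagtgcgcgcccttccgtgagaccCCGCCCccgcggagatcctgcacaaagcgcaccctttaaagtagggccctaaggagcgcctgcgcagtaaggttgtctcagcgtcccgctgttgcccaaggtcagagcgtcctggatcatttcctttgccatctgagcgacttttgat
Hmgcs1 carries 3 CCAAT boxes, 2 GC boxes and 1 sterol element in this window. Idi1 and Mvd each carry 2 CCAAT boxes and 1 GC box, and Cyp51 carries 1 of each. Dhcr7 carries 1 GC box and 0 CCAAT boxes. The other synthesis genes called lower with LPS (Mvk, Mvd, Lss, Tm7sf2, Nsdhl and Ebp) each carry at least 1 CCAAT box. A link between these motifs and the LPS response was not tested. A promoter entry was matched for 14 of the 17 synthesis genes, and 13 of these 14 (92.9%) held a CCAAT box, against 35.8% of the 9887 tested genes with an entry and 34.5% of all 27025 promoters. The GC box was also found in 13 of 14 (92.9%), against 53.2% of the tested genes and 32.9% of all promoters. The sterol element was found in 1 of 14 (7.14%), against 0.981% of the tested genes. Only the letters TCACNCCAC were searched, so a window without a match may still hold another form of the element. Among the 12 other members with an entry, 7 (58.3%) held a CCAAT box and 5 (41.7%) a GC box. The letters AGGTCA repeated after a spacer of any 4 bases, searched on both strands as the form bound by liver X receptors (DR4), were found in 0 of the 26 member promoters. These letters were rare in general, in 3 of all 27025 promoters (0.0111%) and 0 of the 9887 tested genes, so the count for the members carries no information. The 3 motifs shown do not overlap by their letters in these windows, and a match to letters is not a measured binding site.

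Values are log2 signals as deposited. Array medians lay between 6.23 and 6.43, and replicate arrays correlated at 0.9974 to 0.9987 over all genes. The cultures expressed the macrophage marker list in full (10 of 10 measured genes at a log2 signal of at least 5 in CON cells), with Csf1r at 13.92, Adgre1 at 12.22 and Lyz2 at 14.45. Markers of other cells were also present: 8 of 10 fibroblast and stroma genes and 9 of 9 neutrophil genes were at 5 or above. Below 5 were 4 of 5 lymphocyte genes, 3 of 5 dendritic cell genes and 2 of 5 osteoclast genes. The summed linear signal of the fibroblast list was 19440 to 19980 in SPIO cells, against 24340 to 25060 in CON cells, with 6 of 10 genes lower and 0 higher. That of the neutrophil list was 15230 to 15880 in SPIO cells, against 22060 to 23590 in CON cells, with 8 of 9 genes lower and 0 higher. With LPS in both groups, 7 of 10 fibroblast and 7 of 9 neutrophil genes were lower in SPIO-LPS cells, and the neutrophil sum was 17050 to 17620, against 24110 to 24480 in LPS cells. Of the macrophage genes, 2 were higher and 6 lower in SPIO cells than in CON cells. LPS moved these lists too: the fibroblast sum was 19420 to 20570 in LPS cells, against 24340 to 25060 in CON cells, with 4 of 10 genes higher and 5 lower. The neutrophil sum was 24110 to 24480 in LPS cells, against 22060 to 23590 in CON cells (2 of 9 genes higher, 4 lower), and 3 macrophage genes were higher and 6 lower. The osteoclast sum was 1511 to 1716 in LPS cells, against 821.6 to 850.8 in CON cells (2 of 5 genes higher, 2 lower). The part of these cells in the results below was not tested. The log2 excess of 3′ over 5′ signal for Gapdh, a measure of RNA and labelling quality, was 0.47 ± 0.03 in SPIO cells and 0.52 ± 0.05 in LPS cells, against 0.69 ± 0.04 in CON cells (SD, n = 3). For beta-actin the same measure was higher in SPIO cells (0.657 ± 0.015) and lower in LPS cells (0.38 ± 0.05) than in CON cells (0.59 ± 0.02). The other groups differed as well. SPIO-LPS cells stood at 0.40 ± 0.06 for Gapdh and 0.52 ± 0.01 for beta-actin. Silica cells were at 0.56 ± 0.02 and 0.62 ± 0.02, and Silica-LPS cells at 0.43 ± 0.05 and 0.44 ± 0.03, in the same order. The part of these differences in the results was not tested either.

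SPIO raised nearly the whole synthesis pathway. On the probe sets used, all 6 measured mevalonate genes and 10 of 11 genes of the squalene and sterol arm rose in SPIO cells, and none fell. The median difference over the 17 synthesis genes was 0.76 on the log2 scale, against -0.01 over all genes. Over all 33 genes, 23 rose and 3 fell, whereas 19.6% of all genes measured rose and 14.2% fell by limma's moderated test at an adjusted p below 0.05. The fibroblast and neutrophil lists above were lower in the same comparison. In these whole cultures, fewer cells of a type and less RNA per cell cannot be told apart.

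In the mevalonate arm the largest rise was that of Fdps, which makes farnesyl diphosphate. Its log2 signals were 9.65, 9.76 and 9.70 in SPIO cells, against 8.34, 8.47 and 8.74 in CON cells. The groups did not overlap, and the spread in CON cells was wider than in SPIO cells. The difference was 1.18 ± 0.08 (SE), or 2.27-fold (adjusted p = 1.49e-08 by limma). Mvd, the decarboxylase that yields isopentenyl diphosphate, had signals of 7.76, 7.86 and 7.71 in SPIO cells, against 6.79, 6.80 and 6.83 in CON cells. All 3 SPIO arrays were higher than every CON array by more than the range within either group, and the rise was 0.97 ± 0.11 (1.96-fold, limma adjusted p = 5.01e-06). Idi1, which isomerises isopentenyl diphosphate, stood at 10.19, 10.36 and 10.21 in SPIO cells, against 9.30, 9.35 and 9.49 in CON cells. Its groups were again apart, with a rise of 0.87 ± 0.06 (limma adjusted p = 2.04e-08). Hmgcs1, a synthase early in the pathway, had 11.63, 11.72 and 11.65 in SPIO cells, against 10.86, 10.90 and 10.89 in CON cells. Its replicates were tight in both groups, and it rose by 0.78 ± 0.04 (1.72-fold, limma adjusted p = 1.3e-09). The kinases of the arm moved less. Pmvk had 7.73, 7.89 and 7.87 in SPIO cells, against 7.27, 7.30 and 7.39 in CON cells, with no overlap. Pmvk rose by 0.51 ± 0.07 and Mvk by 0.46 ± 0.09 (limma adjusted p = 1.93e-05 and 0.000829). A second probe set of Mvk was not called (0.16, limma adjusted p = 0.126 over all probe sets).

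In the squalene and sterol arm the largest rise was at its entry. Fdft1, squalene synthase, had signals of 9.74, 9.83 and 9.70 in SPIO cells, against 8.74, 8.72 and 8.86 in CON cells. The lowest SPIO array was well above the highest CON array, and the difference was 0.98 ± 0.05 (1.98-fold, limma adjusted p = 1.62e-09). Sqle, squalene epoxidase, had 10.16, 10.16 and 10.09 in SPIO cells, against 9.24, 9.17 and 9.36 in CON cells. The groups were apart, and Sqle rose by 0.88 ± 0.06 (limma adjusted p = 2.42e-08). Msmo1, which removes methyl groups from the sterol nucleus, had 10.05, 10.19 and 10.03 in SPIO cells, against 9.24, 9.16 and 9.24 in CON cells. It too rose without overlap, by 0.88 ± 0.06 (limma adjusted p = 1.56e-08). Cyp51, the lanosterol demethylase, had 9.27, 9.38 and 9.32 in SPIO cells, against 8.52, 8.49 and 8.66 in CON cells. It was higher on every SPIO array, by 0.76 ± 0.05 (limma adjusted p = 9.61e-09). Dhcr7, which catalyses the last reduction to cholesterol, had 7.67, 7.68 and 7.64 in SPIO cells, against 7.23, 7.23 and 7.12 in CON cells. The SPIO arrays were nearly equal and all above CON, and the rise was 0.47 ± 0.08 (1.38-fold, limma adjusted p = 0.000417).

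The other sterol arm genes that rose did so by 0.82 (Sc5d, a sterol desaturase), 0.72 (Lss, which closes squalene epoxide into lanosterol), 0.56 (Nsdhl), 0.48 (Tm7sf2, a sterol reductase) and 0.18 (Ebp, a sterol isomerase). Hsd17b7, which acts beside Nsdhl and Msmo1 in demethylation, was not called on the probe set used. Its difference was 0.12, with a 95% interval of -0.06 to 0.30 (limma adjusted p = 0.29), although a second probe set of the gene rose by 0.23 (limma adjusted p = 0.0161 over all probe sets). Over the 6 fits that each left out 1 SPIO or CON array, 16 of the 17 synthesis genes were called in every case. With the mean of all probe sets of a gene, the rises of Fdps, Fdft1 and Sc5d were smaller but still called, at 0.65, 0.50 and 0.43.

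With LPS present in both groups, SPIO pretreatment raised 16 of the 17 synthesis genes and lowered 0, on the probe sets used. Hsd17b7 was again not called (0.16, 95% interval -0.02 to 0.34), but its second probe set rose by 0.44 (limma adjusted p = 9.11e-05 over all probe sets). Of all 33 members, 24 rose and 5 fell in SPIO-LPS cells against LPS cells, whereas 18.2% of all genes rose and 14.6% fell. The median over the synthesis genes was 0.75, against 0.01 over all genes. The largest rise was that of Mvd, with signals of 7.37, 7.43 and 7.69 in SPIO-LPS cells, against 6.33, 5.88 and 6.21 in LPS cells. No array overlapped, and the difference was 1.36 ± 0.11 (2.56-fold, limma adjusted p = 1.26e-07). Fdps stood at 10.05, 10.00 and 10.09 in SPIO-LPS cells and at 8.88 on all 3 LPS arrays, a rise of 1.17 ± 0.08 (2.24-fold, limma adjusted p = 1.51e-08). Fdft1 had 10.58, 10.57 and 10.59 in SPIO-LPS cells, against 9.48, 9.50 and 9.56 in LPS cells. Its replicates were nearly equal within each group, and it rose by 1.07 ± 0.05 (limma adjusted p = 5.13e-10). Dhcr7 rose least but for Ebp, by 0.32 ± 0.08 (limma adjusted p = 0.00823). Once all probe sets of a gene were averaged, the rises of Fdps, Fdft1, Sc5d and Mvk were 0.62, 0.58, 0.51 and 0.24, each still called. On its own the second Mvk probe set was not called (0.05, limma adjusted p = 0.721 over all probe sets).

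The SPIO effect with LPS was set against the SPIO effect without LPS by the interaction term of the same model. It was called by limma for 0 of the 17 synthesis genes and for 4 of all 33 members, against 8.8% of all genes, while 10 members had an unadjusted p below 0.05, among them the synthesis genes Idi1, Mvd and Tm7sf2. The differences between the effects ran from -0.20 for Idi1 to 0.38 for Mvd, with a 95% interval of 0.05 to 0.72 for Mvd (limma adjusted p = 0.164). Tm7sf2, at 0.23, was called only when CON array 1 was left out (0.29, limma adjusted p = 0.0486). For Hmgcs1 the interval was -0.15 to 0.10, for Cyp51 -0.10 to 0.20 and for Fdps -0.25 to 0.22. For the median gene the 95% interval of this term reached 0.24 to either side. In simulated data with 200 of the 12393 genes changed, a difference of 0.5 between the effects was recovered in 40.3% of cases. In the real data 1090 genes were called, which makes the adjusted threshold less strict, so this share may be too low for them. A difference of 0.5 lies outside the intervals given for Hmgcs1, Cyp51 and Fdps and inside that of Mvd. Differences of that size could be missed for genes measured with less precision.

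**Figure D1:**
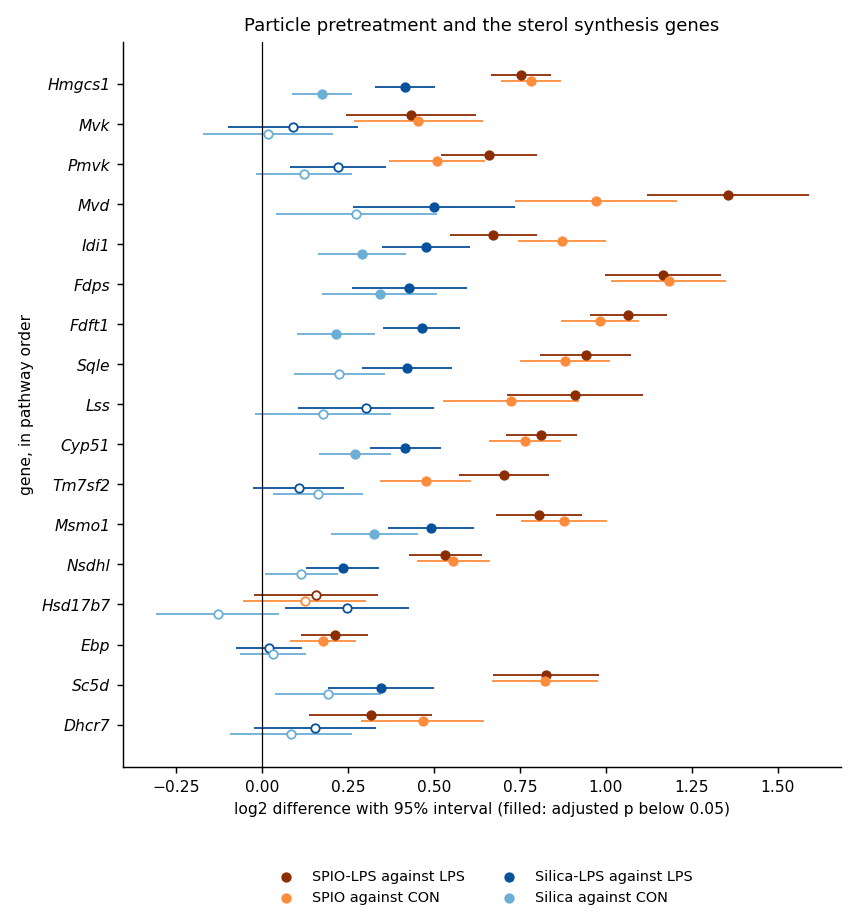
Log2 difference of the 17 synthesis genes, in pathway order from top to bottom, for SPIO (orange, dark with LPS) and silica (blue, dark with LPS) against the matching cells without particles. Points are limma estimates from 3 arrays a group, bars are 95% intervals and filled points have an adjusted p below 0.05. At matched LPS the SPIO point lies to the right of the silica point for each gene but Hsd17b7 with LPS.

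Silica gave smaller differences in the same genes. In Silica cells, 6 of the 17 synthesis genes rose and 0 fell against CON cells, and over all 33 members 8 rose and 1 fell, whereas 2.45% of all genes rose and 1.57% fell. The 6 were Fdps (0.34), Msmo1 (0.33), Idi1 (0.29), Cyp51 (0.27), Fdft1 (0.22) and Hmgcs1 (0.17). Cyp51 had signals of 8.87, 8.78 and 8.84 in Silica cells, against 8.52, 8.49 and 8.66 in CON cells. These groups did not overlap, and the rise was 0.27 ± 0.05 (1.21-fold, limma adjusted p = 0.00549). Msmo1 had 9.50, 9.52 and 9.60 in Silica cells, against 9.24, 9.16 and 9.24 in CON cells, also without overlap (limma adjusted p = 0.00532). The 8 rises came down to 2 without CON array 1, CON array 2 or Silica array 1, to 4 without Silica array 2 or Silica array 3, and to 1 (Msmo1) when Silica and CON arrays were fitted alone. When probe sets were averaged, Cyp51, Fdps, Fdft1, Scd1 and Scd2 were not called.

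With LPS, Silica-LPS cells had 10 of 17 synthesis genes above LPS cells and 0 below, and 12 of 33 members rose and 0 fell, against 1.89% and 0.976% of all genes. At an unadjusted p below 0.05 there were 20 members. Hmgcs1 had signals of 11.89, 11.90 and 11.88 in Silica-LPS cells, against 11.49, 11.48 and 11.46 in LPS cells. The replicates of both groups were nearly equal, and the rise was 0.41 ± 0.04 (1.33-fold, limma adjusted p = 0.00012). Idi1 had 10.96, 10.99 and 11.01 in Silica-LPS cells, against 10.55, 10.56 and 10.42 in LPS cells, again without overlap, a rise of 0.48 ± 0.06 (limma adjusted p = 0.000541). The other 8 rose by 0.24 (Nsdhl) to 0.50 (Mvd). The 12 rises came down to 6, all in synthesis genes, when Silica-LPS and LPS arrays were fitted alone, a fit without calls for Mvd, Sqle, Nsdhl and Sc5d. After averaging of probe sets, Fdft1, Sc5d and Scd2 were not called. The silica effect with LPS was not called different from that without LPS for any of the 33 members by limma, where 0.0161% of all genes were called. At an unadjusted p below 0.05 there were 7 members (6.8% of all genes), and Hmgcs1 alone was called with a variance trend and a robust prior.

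The particles were also set against each other. SPIO cells were above Silica cells for 17 of 17 synthesis genes, by a median of 0.55, and over all members 22 were higher and 4 lower, against 14.6% and 11.6% of all genes. Fdps differed most, with 9.65, 9.76 and 9.70 in SPIO cells, against 8.96, 8.86 and 8.77 in Silica cells, a gap of 0.84 ± 0.08 (1.79-fold, limma adjusted p = 1.02e-06) that was 0.47 with the mean of its probe sets. With LPS, 15 of 17 synthesis genes were higher in SPIO-LPS cells than in Silica-LPS cells, by a median of 0.40, and over all members 21 were higher and 5 lower, against 12.2% and 12.9% of all genes. The 2 that were not called were Dhcr7 (0.16, 95% interval -0.02 to 0.34) and Hsd17b7 (-0.09, -0.27 to 0.09). The call of Idi1 (0.20) was lost with the mean of its probe sets (0.05). The labels give the same 25 mg/ml for both particles. Their sizes and materials differ together and cannot be told apart.

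With LPS the synthesis genes were called in both directions, while the marker lists above also differed. In LPS cells against CON cells, 9 synthesis genes rose, 7 fell and Pmvk was not called (0.14, 95% interval 0.0031 to 0.28, limma adjusted p = 0.0746). Over all members 13 rose and 17 fell, where 22.2% of all genes rose and 36.1% fell. The 7 falls among the 17 synthesis genes were near the 36.1% of all genes, and their number depended on the scaling. After cyclic loess scaling of the arrays the members that fell were 10 and those that rose 14, beside 3445 of the 12393 genes that fell and 3520 that rose, and for the synthesis genes 10 rose and 4 fell (Mvd, Tm7sf2, Ebp and Dhcr7).

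Among those that rose with LPS, Idi1 was highest. It had 10.55, 10.56 and 10.42 in LPS cells, against 9.30, 9.35 and 9.49 in CON cells. The gap between the groups was several times the range within them, and the rise was 1.13 ± 0.06 (2.19-fold, limma adjusted p = 8.38e-11). Cyp51 had 9.43, 9.50 and 9.51 in LPS cells, against 8.52, 8.49 and 8.66 in CON cells, with no overlap, and rose by 0.92 ± 0.05 (1.89-fold, limma adjusted p = 8.68e-11). Fdft1 had 9.48, 9.50 and 9.56 in LPS cells, against 8.74, 8.72 and 8.86 in CON cells, and rose by 0.74 ± 0.05 (limma adjusted p = 3.51e-09). The others that rose were Hsd17b7 (0.67), Sc5d (0.61), Hmgcs1 (0.59), Msmo1 (0.41), Fdps (0.36) and Sqle (0.15). Hsd17b7, not called for SPIO on the probe set used, rose with LPS on both of its probe sets. The call of Sqle was lost without CON array 1, CON array 2 or LPS array 3, each left out alone (0.14, 0.11 and 0.10). With averaged probe sets, Fdps and Sc5d rose by less (0.21 and 0.40).

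Among those that fell, Dhcr7 moved most. It had 5.70, 5.59 and 5.88 in LPS cells, against 7.23, 7.23 and 7.12 in CON cells. Every LPS array was far below every CON array, and the fall was -1.48 ± 0.08, or 2.78-fold lower (limma adjusted p = 2e-10). Ebp had 8.88, 8.87 and 8.97 in LPS cells, against 9.69, 9.59 and 9.73 in CON cells, and differed by -0.76 ± 0.05 (1.70-fold lower, limma adjusted p = 3.42e-10). Mvd had 6.33, 5.88 and 6.21 in LPS cells, against 6.79, 6.80 and 6.83 in CON cells. Its LPS arrays were scattered but all below CON, with a difference of -0.67 ± 0.11 (limma adjusted p = 6.4e-05). Tm7sf2 differed by -0.50, Mvk by -0.33, Nsdhl by -0.28 and Lss by -0.25. Of these, Mvk fell on 1 probe set and rose by 0.27 on its other (limma adjusted p = 0.00754 over all probe sets), and a further Lss probe set fell by 1.26. Under cyclic loess scaling Mvd was at -0.44, Mvk and Nsdhl were not called (-0.13 and -0.02) and Lss turned to 0.01. The Lss call was also lost without CON array 1, CON array 3, LPS array 2 or LPS array 3 (-0.25 to -0.21).

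**Figure D2:**
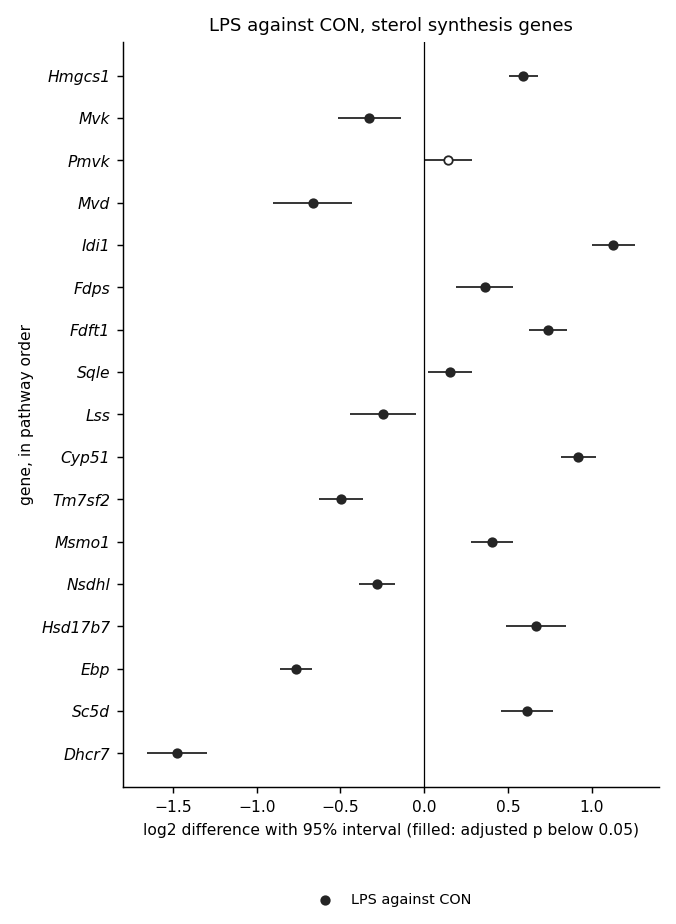
Log2 difference of LPS against CON cells for the 17 synthesis genes in pathway order. Points are limma estimates from 3 arrays a group, bars are 95% intervals and filled points have an adjusted p below 0.05. The 9 genes called higher and the 7 called lower lie mixed along the pathway. Of the 7, only Mvd, Tm7sf2, Ebp and Dhcr7 were also called lower under cyclic loess scaling.

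The combined groups show both patterns at once. On the probe sets used, the SPIO-LPS arrays were the highest of all 18 for Hmgcs1, Idi1, Fdps and Cyp51. Cyp51 stood at 10.28, 10.31 and 10.28 in SPIO-LPS cells. On the other Idi1 probe set the SPIO-LPS arrays (9.29, 9.40 and 9.40) were below the Silica-LPS arrays (9.45, 9.45 and 9.46). For Dhcr7 the SPIO arrays were the highest, and SPIO-LPS cells stood at 5.94, 6.15 and 6.03, above every LPS array but far below CON. Mvd in SPIO-LPS cells (7.37 to 7.69) was above its level in CON cells (6.79 to 6.83) although LPS alone lowered it.

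**Figure D3:**
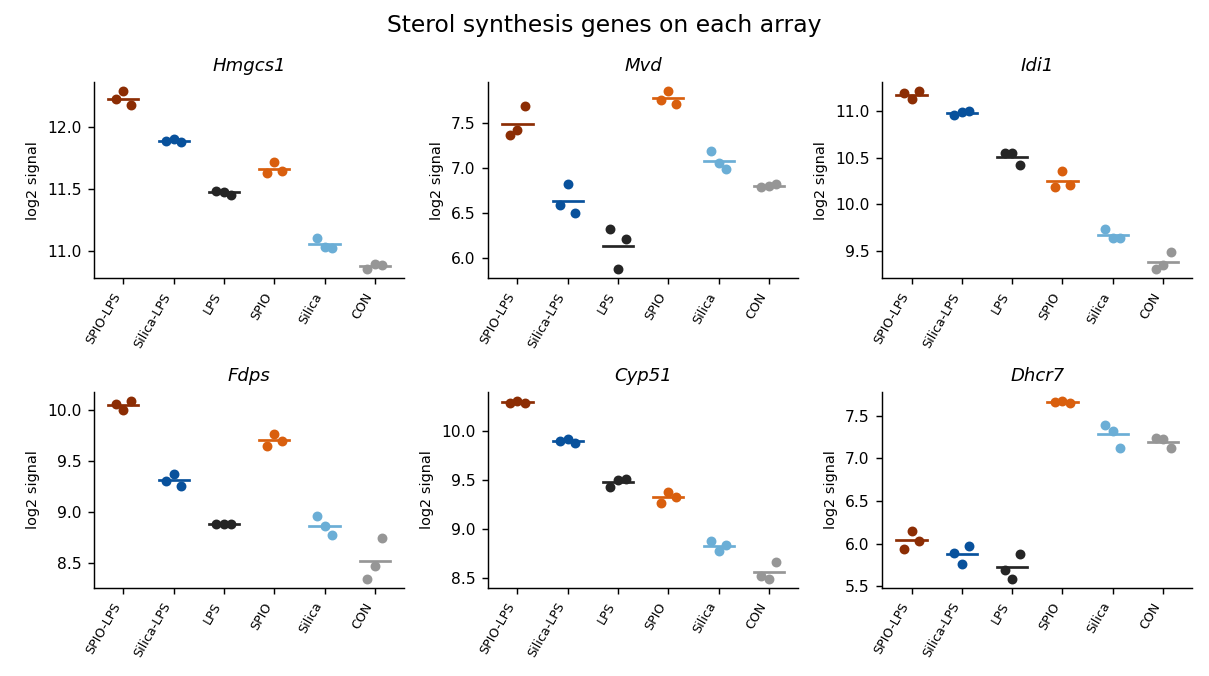
Log2 signal of 6 synthesis genes on each of the 18 arrays, by group; points are arrays, lines are group means and the axes do not start at 0. On the probe sets used, Hmgcs1, Idi1, Fdps and Cyp51 are highest in SPIO-LPS cells, which for Idi1 does not hold on its other probe set. Dhcr7 is lower in each group with LPS (5.59 to 6.15) than in each group without it (7.12 to 7.68).

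The sensing machinery moved by smaller amounts with SPIO. Of 4 measured genes, 3 rose in SPIO cells and 0 fell, where 19.6% of all genes rose and 14.2% fell. Srebf2, which encodes SREBP2, had 8.19, 8.23 and 8.16 in SPIO cells, against 7.84, 7.75 and 7.79 in CON cells. The groups did not overlap, and the rise was 0.40 ± 0.05 (1.32-fold, limma adjusted p = 2.77e-05). The other Srebf2 probe set was not called in this comparison (0.20, limma adjusted p = 0.0624 over all probe sets). In SPIO-LPS cells against LPS cells that probe set rose by 0.40 (limma adjusted p = 0.000863 over all probe sets). Insig2, one of the INSIG retention proteins, had 8.95, 9.15 and 9.06 in SPIO cells, against 8.78, 8.79 and 8.78 in CON cells. CON arrays were nearly equal and all lower, and the rise was 0.27 ± 0.07 (limma adjusted p = 0.00516). Srebf1, whose product favours fatty acid genes, had 9.07, 9.18 and 9.23 in SPIO cells, against 9.02, 8.93 and 9.04 in CON cells. Its groups nearly touched, and its call (0.16 ± 0.05, limma adjusted p = 0.0195) was lost without CON array 2, SPIO array 2 or SPIO array 3 (0.12, 0.15 and 0.12), with SPIO and CON arrays fitted alone, and under cyclic loess scaling (0.11). Scap, the escort protein, was at 0.14 with a 95% interval of 0.02 to 0.27 (limma adjusted p = 0.0732).

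In SPIO-LPS cells the same 3 genes rose against LPS cells, where 18.2% of all genes rose, Srebf2 by 0.43, Insig2 by 0.37 and Srebf1 by 0.32. Scap was at 0.04. With the mean of its probe sets Insig2 rose by 0.17 with SPIO and by 0.15 in SPIO-LPS cells, both still called. Its probe sets besides the one used were not called on their own, at 0.15 and 0.09 with SPIO. In SPIO-LPS cells against LPS cells they were at 0.11 and -0.03, so the rise rests on the probe set used. None of the 4 was called with silica, either without or with LPS. LPS itself raised Srebf2, to 8.89, 8.94 and 9.05 in LPS cells, against 7.84, 7.75 and 7.79 in CON cells. No array overlapped, and the rise was 1.17 ± 0.05 (2.24-fold, limma adjusted p = 1.33e-11), while its other probe set rose by 0.40. Insig2 moved the other way, with 8.41, 8.21 and 8.45 in LPS cells, against 8.78, 8.79 and 8.78 in CON cells. All LPS arrays were lower, with a mean difference of -0.43 ± 0.07 (limma adjusted p = 3.26e-05). Srebf1 and Scap were at -0.17 and -0.25 (limma adjusted p = 0.00824 and 0.00144), but under cyclic loess scaling Srebf1 turned to 0.05, Scap was not called (-0.02) and Insig2 was at -0.20.

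**Figure D4:**
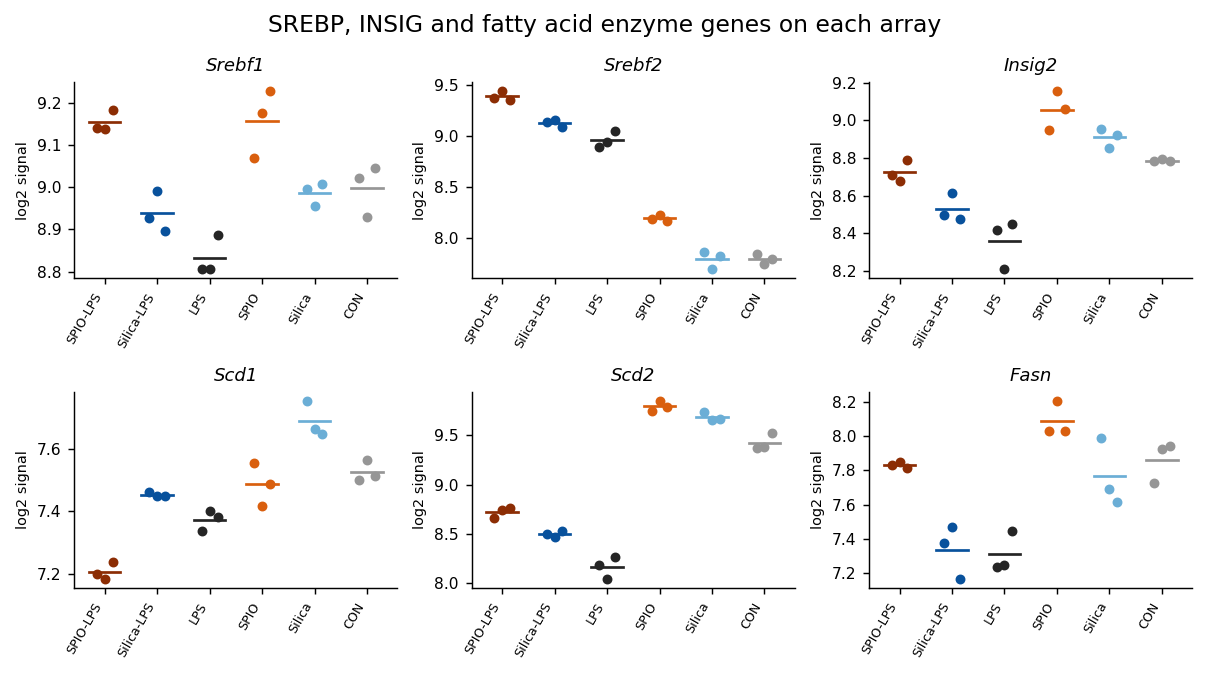
Log2 signal of Srebf1, Srebf2, Insig2, Scd1, Scd2 and Fasn on each of the 18 arrays, by group; points are arrays, lines are group means and the axes do not start at 0. Srebf2 is higher in each group with LPS (8.89 to 9.44) than in each group without it (7.69 to 8.23), and Scd2 is lower (8.04 to 8.76 against 9.37 to 9.86).

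Stard4, a carrier that moves free sterol to the endoplasmic reticulum and is itself an SREBP2 target, had 8.79, 8.71 and 8.63 in SPIO cells, against 8.20, 8.24 and 8.21 in CON cells. Every SPIO array was higher, and the rise was 0.50 ± 0.06 (1.41-fold, limma adjusted p = 1.76e-05). It also rose by 0.50 in SPIO-LPS cells and by 0.39 in Silica-LPS cells against LPS cells (limma adjusted p = 1.45e-05 and 0.00382). With LPS alone it was not called on the probe set used (-0.14), but its other probe set rose by 0.70.

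Ch25h, which makes 25-hydroxycholesterol, an oxysterol that holds back SREBP processing, had the largest LPS response of the 33 genes. It had 12.21, 12.36 and 12.16 in LPS cells, against 5.80, 5.85 and 5.95 in CON cells. The 2 groups lay at opposite ends of its range, 6.38 ± 0.08 apart (83.2-fold as deposited, limma adjusted p = 3.02e-18), a size that is understated because the CON signals were dim. SPIO pretreatment lowered this level. SPIO-LPS cells had 10.35, 10.51 and 10.35, against 12.21, 12.36 and 12.16 in LPS cells, still far above CON but without overlap with LPS. The difference was -1.84 ± 0.08, or 3.59-fold lower (limma adjusted p = 8.21e-11). Silica-LPS cells had 11.97, 11.95 and 12.03, a difference from LPS cells of -0.27 ± 0.08 that was not called (limma adjusted p = 0.0815). Without LPS the gene was dim, with 4.94, 5.26 and 5.21 in SPIO cells and 5.42, 5.45 and 5.41 in Silica cells, against 5.80, 5.85 and 5.95 in CON cells. Both particles lowered it, with differences of -0.73 for SPIO and -0.44 for silica (limma adjusted p = 2.09e-06 and 0.0049), and at such signals a log2 difference is understated. On the deposited log2 scale the SPIO effect was more negative with LPS than without, by -1.11 ± 0.11 (limma adjusted p = 6.05e-06). Because the effect without LPS was measured at these dim signals, how far the effects differ is uncertain.

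Of the 6 genes of export and receptor turnover, 1 rose with SPIO, 2 fell and 3 were not called, where 19.6% of all genes rose and 14.2% fell. Abca1, the exporter that loads apolipoprotein with cholesterol, had 11.51, 11.54 and 11.54 in SPIO cells, against 12.17, 12.27 and 12.16 in CON cells. The SPIO arrays were nearly equal and all lower, with a difference of -0.67 ± 0.06 (1.59-fold lower, limma adjusted p = 2.98e-07). Its 2 dimmer probe sets fell as well. In SPIO-LPS cells the difference from LPS cells was -0.24 ± 0.06 (limma adjusted p = 0.00511), from signals of 12.09, 12.14 and 12.09 in SPIO-LPS cells, against 12.32, 12.31 and 12.40 in LPS cells. The SPIO effect on Abca1 was thus less negative with LPS, by 0.43 ± 0.08 (limma adjusted p = 0.0029). With the mean of the 3 probe sets neither this interaction (0.40, limma adjusted p = 0.252) nor the difference in SPIO-LPS cells (-0.26, 0.163) was called.

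Abcg1, which exports cholesterol to mature high-density lipoprotein, showed the reverse order. Without LPS it had 9.004, 8.93 and 9.10 in SPIO cells, against 8.90, 9.05 and 8.81 in CON cells, overlapping groups with a difference of 0.09 (95% interval -0.06 to 0.24). With LPS it had 7.89, 8.07 and 8.04 in SPIO-LPS cells, against 8.75, 8.64 and 8.57 in LPS cells. These groups were apart, with a difference of -0.65 ± 0.07 (1.57-fold lower, limma adjusted p = 3.06e-06). The effect with LPS was below that without by -0.75 ± 0.10 (limma adjusted p = 0.000152).

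Mylip, a ubiquitin ligase induced by liver X receptors that marks lipoprotein receptors for breakdown, went up with SPIO. It had 11.00, 11.01 and 11.03 in SPIO cells, against 10.60, 10.73 and 10.69 in CON cells, a rise of 0.34 ± 0.05 without overlap (limma adjusted p = 5.63e-05). LPS lowered it to 9.63, 9.64 and 9.68 in LPS cells, 2.03-fold below CON cells (-1.02 ± 0.05, limma adjusted p = 2.46e-11). SPIO-LPS cells had 10.68, 10.61 and 10.70, back within the range of CON cells and apart from LPS cells. That rise was 1.01 ± 0.05 (2.02-fold, limma adjusted p = 4.35e-10), and it exceeded the SPIO effect without LPS by 0.67 ± 0.07 (limma adjusted p = 1.14e-05). Silica-LPS cells, at 9.79, 9.61 and 9.72, were not called against LPS cells (0.06, 95% interval -0.05 to 0.16).

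Pltp, a phospholipid transfer protein, had 10.45, 10.32 and 10.16 in SPIO cells, against 11.06, 11.14 and 11.06 in CON cells. All SPIO arrays were lower, with a mean difference of -0.78 ± 0.06 (limma adjusted p = 1.45e-07), but a second probe set of Pltp did not move (-0.01, limma adjusted p = 0.9). With LPS the difference was -0.49 ± 0.06 (limma adjusted p = 1.92e-05) on the probe set used and -0.14, not called, on the other. The means of both were -0.40 without LPS and -0.32 with it, called in each case. Nr1h3, which encodes liver X receptor alpha, was dim, with 4.96, 5.15 and 5.02 in SPIO cells, against 5.13, 5.33 and 5.12 in CON cells. These groups overlapped and the gene was not called with either particle, but it was higher by 0.30 ± 0.09 in LPS cells (5.46, 5.49 and 5.53) than in CON cells (limma adjusted p = 0.00941). Apoe, the apolipoprotein that macrophages secrete, lay between 13.85 and 14.20 on all arrays, near the array maxima of 14.48 to 14.62, where differences are understated. It was not called with either particle and was -0.21 ± 0.04 in LPS cells against CON cells (limma adjusted p = 0.000105). With LPS, Abca1 and Abcg1 were at 0.14 and -0.27 against CON cells (limma adjusted p = 0.0465 and 0.00403). Under cyclic loess scaling Apoe was at -0.13. The call of Abca1 was lost without any 1 of CON arrays 1 and 3 or LPS arrays 1, 2 and 3 (0.12 to 0.16), but its 2 dimmer probe sets rose by 0.72 and 0.73 (limma adjusted p = 0.00175 and 0.00495 over all probe sets), so the size of the Abca1 rise differs between probe sets. The call of Abcg1 was lost under cyclic loess scaling.

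**Figure D5:**
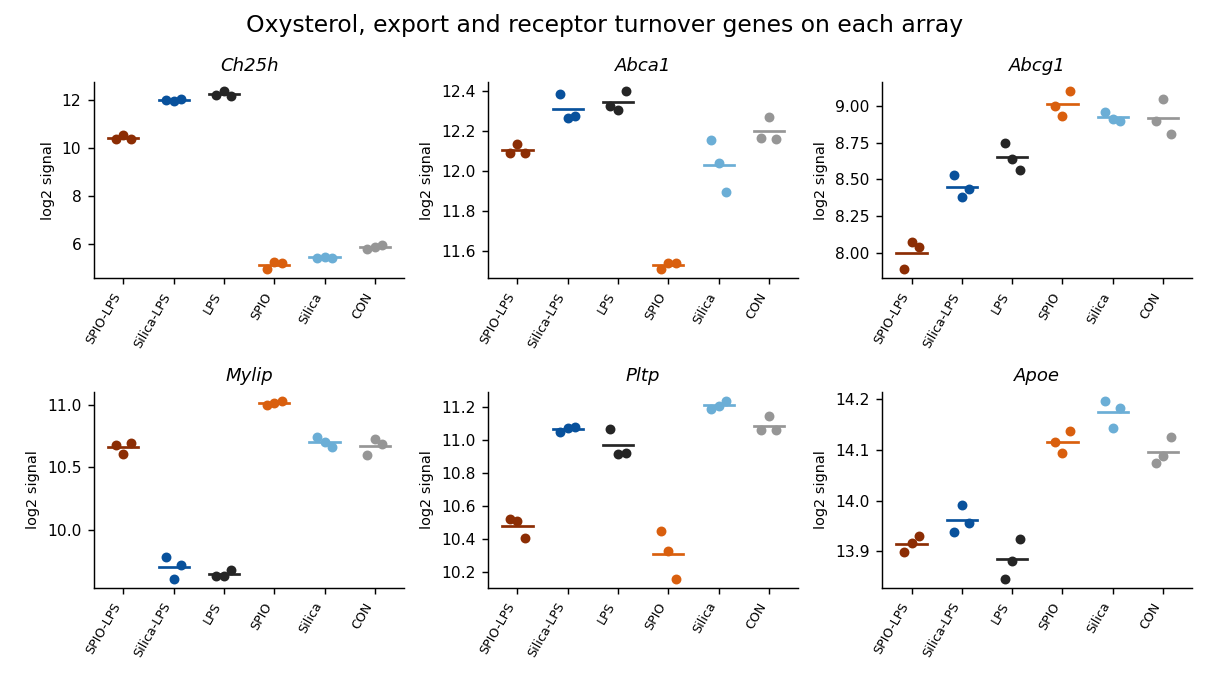
Log2 signal of Ch25h, Abca1, Abcg1, Mylip, Pltp and Apoe on each of the 18 arrays, by group; points are arrays, lines are group means and the axes do not start at 0. For Mylip the SPIO-LPS arrays (10.61 to 10.70) lie with the CON arrays (10.60 to 10.73), whereas for Abcg1 they are the lowest of all (7.89 to 8.07).

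The 4 fatty acid and phospholipid enzymes were each called lower in LPS cells than in CON cells, as were 36.1% of all genes, and the call of Scd1 did not hold under another scaling of the arrays. Scd2, a desaturase, had 8.18, 8.04 and 8.26 in LPS cells, against 9.37, 9.38 and 9.52 in CON cells. The groups were far apart, at -1.27 ± 0.06 (2.41-fold lower, limma adjusted p = 1.46e-11). Fasn, fatty acid synthase, had 7.24, 7.25 and 7.45 in LPS cells, against 7.72, 7.92 and 7.94 in CON cells, a difference of -0.55 ± 0.10 (limma adjusted p = 0.000159). Lpcat3, which remodels phospholipids, had 8.51, 8.55 and 8.57 in LPS cells, against 8.89, 8.88 and 8.99 in CON cells (-0.38 ± 0.05, limma adjusted p = 8.87e-06). Scd1 had 7.34, 7.40 and 7.38 in LPS cells, against 7.50, 7.56 and 7.51 in CON cells. Its difference was small, -0.15 ± 0.04 (limma adjusted p = 0.00706), and turned to 0.10 under cyclic loess scaling, where Fasn was at -0.29 and Lpcat3 at -0.15. With the mean of its probe sets Scd2 was at -0.55.

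With SPIO the desaturases parted. Scd2 had 9.75, 9.86 and 9.80 in SPIO cells, against 9.37, 9.38 and 9.52 in CON cells, and rose by 0.37 ± 0.06 (limma adjusted p = 0.000122). Scd1 had 7.56, 7.42 and 7.49 in SPIO cells, against 7.50, 7.56 and 7.51 in CON cells, overlapping groups (-0.04, limma adjusted p = 0.551). Lpcat3 rose by 0.18 ± 0.05 (limma adjusted p = 0.0146), a call lost without CON array 1, CON array 2 or SPIO array 2 (0.15 to 0.16), and Fasn was at 0.22 (95% interval 0.01 to 0.44, limma adjusted p = 0.0986). In SPIO-LPS cells against LPS cells, Scd2, Fasn and Lpcat3 rose by 0.56, 0.52 and 0.20, whereas Scd1 fell by 0.17 (limma adjusted p = 0.00818). The Scd1 call was lost with the mean of its probe sets or with the compared groups alone, and Scd2 rose by 0.28 with the mean of its probe sets. Silica raised Scd2 by 0.26 and Scd1 by 0.16 without LPS (limma adjusted p = 0.0201 and 0.0492), and Scd2 by 0.33 with it, but these calls were lost with averaged probe sets and with the compared groups alone.

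Genes that work beside the 33 were taken from 4 lists, of which 41 of 52 genes were measured. In SPIO cells 15 of the 41 rose and 8 fell, and in LPS cells 6 rose and 27 fell, against CON cells. Of all genes, 19.6% rose and 14.2% fell with SPIO, and 22.2% rose and 36.1% fell with LPS, and the counts for each list below stand beside these shares. Of 13 further synthesis and lipogenic genes, 5 rose and 2 fell with SPIO. Acss2, which activates acetate to acetyl-CoA, rose by 1.14 ± 0.11 (2.21-fold), with 6.78, 7.04 and 6.93 in SPIO cells, against 5.86, 5.72 and 5.75 in CON cells (limma adjusted p = 1.39e-06). Aacs rose by 0.41, while Lbr, which shares the sterol reductase step with Tm7sf2, and Acat1, a mitochondrial thiolase, were at -0.38 and -0.22. With LPS 0 of the 13 rose and 10 fell, where 36.1% of all genes fell.

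Of 13 uptake and intracellular movement genes, 6 rose and 2 fell with SPIO, the falls near the 14.2% of all genes. Npc1, which releases cholesterol from the lysosome, had 11.21, 11.28 and 11.31 in SPIO cells, against 10.34, 10.47 and 10.45 in CON cells. It rose by 0.85 ± 0.06 (1.80-fold, limma adjusted p = 2.14e-08), and LPS lowered it (-1.33 ± 0.06, limma adjusted p = 7.49e-12). Stard5, another sterol carrier, rose by 0.50, whereas Gramd1a, a transporter at membrane contacts, and the scavenger receptor Msr1 were at -0.31 and -0.21. Of 11 partners and targets of liver X receptors, 2 rose with SPIO (Mertk by 0.43 and Smpdl3a by 0.42), near the 19.6% of all genes, and 4 fell, among them Apoc1 (-0.65) and Cyp27a1 (-0.48), which makes another oxysterol. In the list of SREBP processing and degradation, Ubxn8 (0.44) and Fbxw7 (0.33) rose among 4 measured. All changes named here passed limma's test at an adjusted p below 0.05.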

How the data were processed

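RNA of 18 cultures was hybridised to Affymetrix arrays, 3 per group. The values deposited by the authors are log2 signals per probe set made with RMA, per the submitters' processing notes, with the version not given in the sources used here. They hold no detection calls, and the number of arrays limits the precision: the median SE of a difference between groups was 0.08. Of 22626 probe sets that are not controls, 20380 had 1 gene symbol and were used, and 20351 of these symbols were matched by gene identifier. The brightest probe set over all arrays stood for each of 12393 genes. For the 33 genes there were 59 probe sets, and the others were tested on their own, a step added after seeing the data, as was the promoter search.

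In R 4.3.3 with limma 3.58.1, the 18 arrays were fitted together with a mean for each group (lmFit, contrasts.fit, eBayes with default settings) for 9 contrasts. Benjamini-Hochberg adjustment ran over all 12393 genes within a contrast, and a gene was called at an adjusted p below 0.05. Sign, SE and 95% interval are those of the moderated fit. The members and lists were chosen with earlier results of these data known. Per-array values were given for up to 5 called genes per role with the largest difference in SPIO against CON or LPS against CON, for the Insig, Srebf, liver X receptor and Scd pairs, and for related genes up to 2 rises and 2 falls per list were named. Arrays of some further genes were added where a comparison turned on them.

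Comparisons that share the CON or LPS arrays are not independent of each other. In simulated data built on the real means, changes of 0.25, 0.5 and 1 on the log2 scale were recovered in 32.8%, 85.1% and 100% of cases for SPIO against CON, and in 13.4%, 40.3% and 93.9% for the SPIO by LPS interaction. Only 200 genes were changed there, whereas 2431 genes rose and 1758 fell for SPIO against CON in the real data. More calls make the adjusted threshold less strict, so these shares may be too low for the real data. Alternatives were the replicate number as a block, fits to only the groups compared, limma's trend and robust options for the variance, cyclic loess between arrays, leaving out the dimmest 33.3% of genes, averaging the probe sets of a gene, and leaving out each array in turn. Promoters came from RefSeq on GRCm38.p6, with 26 of 33 members matched.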

Additional observations from a re-analysis of the deposited data

Results flagged for a closer look

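The SPIO effect differed between cells with and without LPS, by the interaction term of the limma fit, for 4 of the 33 genes, where 8.8% of all genes were called. For Ch25h it was lower with LPS by -1.11 on the log2 scale (adjusted p = 6.05e-06), but the effect without LPS was measured at dim signals of 4.94 to 5.95, where log2 differences are understated, so this size is uncertain. For Abcg1 it was lower with LPS by -0.75 (adjusted p = 0.000152). For Mylip it was higher with LPS by 0.67 (adjusted p = 1.14e-05). For Abca1 it was higher with LPS by 0.43 (adjusted p = 0.0029), a call that was lost with the mean of its probe sets. In each case all 3 arrays of a group lay on the same side of the other group's arrays where the SPIO effect was called.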

How the results depend on the processing

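Under these alternatives no called difference of a member in a SPIO or silica comparison changed sign. The reversals were all in LPS against CON: Lss at 0.011, Srebf1 at 0.0537 and Scd1 at 0.10 under cyclic loess, and Stard4 at 0.28 with the mean of its probe sets. Loess also gave 10 members and 4 synthesis genes lower with LPS. With the compared groups alone, silica raised 1 member, a synthesis gene, without LPS and 6 with it. With the mean of probe sets it raised 3 members without LPS, all synthesis genes, while the members lower came to 3 in SPIO-LPS against LPS and in SPIO-LPS against Silica-LPS, and the SPIO interaction was higher for 1. A variance trend with a robust prior gave 2 members lower with silica, 1 lower in Silica-LPS cells and 1 synthesis gene higher in the silica interaction. Leaving out the dimmest 33.3% of genes removed 0 members and also gave 1 lower in Silica-LPS cells. The cause of these shifts was not tested.

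Leaving out single arrays moved the members higher with silica between 2 and 8 (synthesis genes 2 to 7) and lower between 1 and 2, those higher in Silica-LPS cells between 9 and 13 (synthesis genes 7 to 11), and the synthesis genes higher in the SPIO interaction between 0 and 1 (members 2 to 3). It moved the members higher with SPIO between 21 and 23. Deviations of same-numbered arrays from their group means correlated at -0.315 to 0.1866 (median -0.0148), so the numbers were not shown to pair the arrays. The replicate block left 23 members higher and 3 lower with SPIO and 6 higher with silica. Over all genes, silica raised 304 in the fit reported, 65 with the compared groups alone and 539 with a variance trend, and lowered 194, 45 and 311. In Silica-LPS cells 234, 35 and 397 genes were higher, and 121 were lower, against 28 with the compared groups alone. In SPIO-LPS cells 2254 were higher, against 1477 with the compared groups alone. Without the dimmest 33.3%, 478 and 379 genes were higher with silica without and with LPS. The silica interaction called 2 genes in all, 1 each way, and 27 higher and 13 lower with a variance trend.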
